A study of Mus musculus with 37 samples.

Results

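Claudins are the membrane proteins that form the strands of epithelial tight junctions, and 9 of their genes are described here in the urinary tract of female BALB/c mice: Cldn1, Cldn2, Cldn3, Cldn4, Cldn5, Cldn7, Cldn8, Cldn10 and Cldn23. They were chosen by gene symbol from the 24421 symbols of the count table, which holds 22 other claudin genes as well. Tight junctions close the gap between neighbouring cells near their luminal side. In the bladder and ureter they keep urine from passing between urothelial cells, and which claudins a strand holds sets whether it seals the gap or lets certain ions through. Cldn1, Cldn3, Cldn4 and Cldn8 are known as barrier-sealing claudins, Cldn7 is an epithelial claudin that also lies along the lateral membrane, Cldn2 and Cldn10 form ion pores, and Cldn5 is the claudin of endothelium. Cldn23 is a little studied claudin of differentiated epithelia.

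RNA was sequenced from pieces of ureter and bladder of mice labelled wild type. One set of mice had received N-butyl-N-(4-hydroxybutyl) nitrosamine (BBN), a carcinogen given in the drinking water, for 18 weeks, and the other had received tap water. Among the mice given BBN, UT is the side of the upper tract with cancer (11 libraries from 10 mice, mouse 5 giving both sides), and UN the side without it (7 libraries from 7 of the same mice). U is the ureter of untreated mice (6 libraries, both ureters of 3 mice), BBN bladder is the bladder of the 10 BBN-treated mice, and untreated bladder is that of the 3 untreated mice. The titles of the BBN bladders give no cancer state, while the library name of mouse 6 carries a T and those of the other 9 an N. Libraries are named by group and mouse, with R or L where both sides were taken.

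Total counts per library were 9724542 to 16735797 in UT, 4675081 to 14973904 in UN, 12980008 to 18793560 in U, 3557697 to 15104379 in BBN bladder and 14348701 to 16617435 in untreated bladder. Levels are given as CPM, a gene's count scaled to a common library total. The pieces held more than urothelium. The summed level of 5 adipocyte genes was 16484 to 24133 CPM in U against 395 to 1126 CPM in untreated bladder. All 10 epithelial markers (among them Epcam, Cdh1 and Krt8) had counts in all 37 libraries, and their sum was 1067 to 2057 CPM in U, 30.9 to 8519 CPM in UN, 1266 to 9614 CPM in UT, 1637 to 12432 CPM in BBN bladder and 9592 to 10451 CPM in untreated bladder. UN 2 stood apart, with an epithelial sum of 30.9 CPM, and UN 6 was next at 816 CPM. UN 6 also had the lowest total of the ureter libraries. Its 10 most abundant genes held 35.5% of counts, the highest share of the 37 libraries. UT 4 held 11 of 12 kidney tubule genes above the level of all 36 other libraries. BBN bladders 1, 3 and 4 had the lowest totals of their group, and their 10 most abundant genes held 21.5% to 29.5% of counts, against 5.17% to 12.2% in the other 7. They are also the bladders with an RNA integrity number under 5. In bulk tissue, fewer cells of a type and less RNA per cell cannot be told apart.

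Cldn3 and Cldn4 are neighbours and behaved differently, so their promoters are shown. On GRCm38, Cldn3 is a single exon on the plus strand of chromosome 5 (134986214 to 134987472), and Cldn4 is a single exon on the minus strand (134945119 to 134946934), 39.28 kb away. The windows run from 250 bases before to 50 bases after the RefSeq start (GRCm38.p6, chr5:134985964-134986263 on the plus strand for Cldn3 and chr5:134946885-134947184 on the minus strand for Cldn4). Capitals mark the E-box CACCTG or its reverse complement CAGGTG, the sequence that the zinc finger repressors Snai1, Snai2, Zeb1 and Zeb2 are known to bind.
Cldn3: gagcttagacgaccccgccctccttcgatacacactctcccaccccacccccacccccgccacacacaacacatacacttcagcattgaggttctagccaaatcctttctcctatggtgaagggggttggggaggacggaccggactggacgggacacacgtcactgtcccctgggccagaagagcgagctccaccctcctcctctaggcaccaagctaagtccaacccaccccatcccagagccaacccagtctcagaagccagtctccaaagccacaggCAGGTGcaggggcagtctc
Cldn4: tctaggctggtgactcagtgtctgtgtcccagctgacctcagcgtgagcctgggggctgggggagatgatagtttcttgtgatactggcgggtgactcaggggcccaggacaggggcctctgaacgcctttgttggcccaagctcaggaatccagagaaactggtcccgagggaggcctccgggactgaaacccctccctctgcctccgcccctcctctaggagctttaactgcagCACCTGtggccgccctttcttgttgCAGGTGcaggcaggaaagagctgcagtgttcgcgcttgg
The Cldn3 window held 1 E-box and the Cldn4 window 2, while 20.2% of all 32851 promoter windows held at least 1. A Cldn7 window held 2 as well, and those of Cldn1, Cldn2, Cldn5 and Cldn10 held none. On both strands, Cldn3 also had 1 GC box (GGGCGG, in 35.7% of windows) and Cldn4 had 2, and Cldn4 had 2 AP-1 motifs (TGANTCA, in 7.81% of windows), where Cldn3 had none. Neither held a grainyhead motif (AACCNGTT, in 2.09%), which the Cldn5 window held once, or a TATA box (TATAAA, in 13.6%), which the Cldn2 window held once. These are matches of letters, not measured binding. Windows were found for 7 of the 9 genes, all but Cldn8 and Cldn23.

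In untreated bladder Cldn8 and Cldn4 were the most abundant of the 9, and Cldn3 and Cldn2 were close to the limit of detection. Compared per length, as CPM per kilobase of exon (medians), Cldn8 stood at 188, Cldn4 at 125, Cldn7 at 74.4, Cldn23 at 33.5, Cldn1 at 5.20, Cldn10 at 4.13, Cldn5 at 4.04, Cldn3 at 0.277 and Cldn2 at 0.0629. Neighbours in this order stood the same way in 3 of 3 bladders, other than Cldn10 and Cldn5, which did so in 1. In U, Cldn4 stood at 25.4, Cldn8 at 18.8, Cldn7 at 16.7 and Cldn5 at 15.7 CPM per kilobase, and these 4 were not cleanly ordered, with 5 of 6 libraries for the first step and 4 of 6 for each of the next. Cldn23 followed at 7.67, Cldn10 at 0.985, Cldn1 at 0.590, Cldn3 at 0.108 and Cldn2 at 0.0209.

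The question of how ureter and bladder differ without carcinogen was answered by U against untreated bladder. Cldn8, a claudin that seals against cations in the distal nephron, was at 452, 443 and 437 CPM in untreated bladders 1, 2 and 3, and between 29.4 and 63.3 CPM (median 44.3) in the 6 U libraries. Those groups were far apart. The log2 fold change of U against untreated bladder was -2.91 ± 0.17 (SE), with an adjusted p of 6.7e-08 (edgeR quasi-likelihood test, Benjamini-Hochberg over all genes tested, as throughout). A gene was called when this adjusted p, the FDR, was under 0.1 and the fold change at least 2.

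Of the 9 claudins, 7 passed the filter on low counts in this comparison, and 6 were called lower and 1 higher in U, where 14.3% of 15318 genes were called lower and 15.7% higher. Besides Cldn8, the lower ones were Cldn1 (-2.81 ± 0.19), Cldn7 (-1.91 ± 0.17), Cldn4 (-1.83 ± 0.18), Cldn23 (-1.83 ± 0.18) and Cldn10 (-1.55 ± 0.24, the largest adjusted p of the 7 at 0.000134). Cldn5 was higher, at 1.95 ± 0.27. Its lowest U library had 18.0 CPM and its highest untreated bladder 11.7 CPM. Each of these 7 genes separated the groups without overlap, as did 46.1% of 15374 genes in the lower and 15.4% in the higher direction. The median log2 fold change was -1.83 over the 7 claudins and -0.02 over all genes. Beside these values, 10 of 10 epithelial, 7 of 7 urothelial, 5 of 8 smooth muscle and 4 of 5 basal and squamous markers tested were lower in U. So were 1 of 6 fibroblast markers, Col1a1, and 1 of 5 kidney tubule genes tested, Fxyd4. Higher in U were 6 of 10 endothelial, 5 of 5 adipocyte and 2 of 8 immune cell markers. Relative to the epithelial RNA of each library, given as CPM per 1000 CPM of the 10 epithelial markers, only Cldn8 of the 6 lower claudins still lay below without overlap. Cldn8 was at 21.8 to 30.8 in U and 43.2 to 46.2 in untreated bladder, below in 6 of 6 U libraries. Cldn1 was at 1.11 to 3.19 and 2.19 to 3.29, with 4 of 6 U libraries below. Cldn23 was at 7.27 to 8.44 and 5.47 to 6.88, above in 6 of 6, and Cldn4 at 23.1 to 34.1 and 16.5 to 24.3, above in 5 of 6. Cldn10 lay above the untreated bladders in 3 of 6 U libraries and Cldn7 in 1 of 6, with the others within their range. Of 15374 genes, 85.9% lay above untreated bladder in every U library on this scale, as did Cldn5, and 1.28% below. The part of the endothelial, adipocyte and other markers in the claudin differences was not tested.

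**Figure D1:**
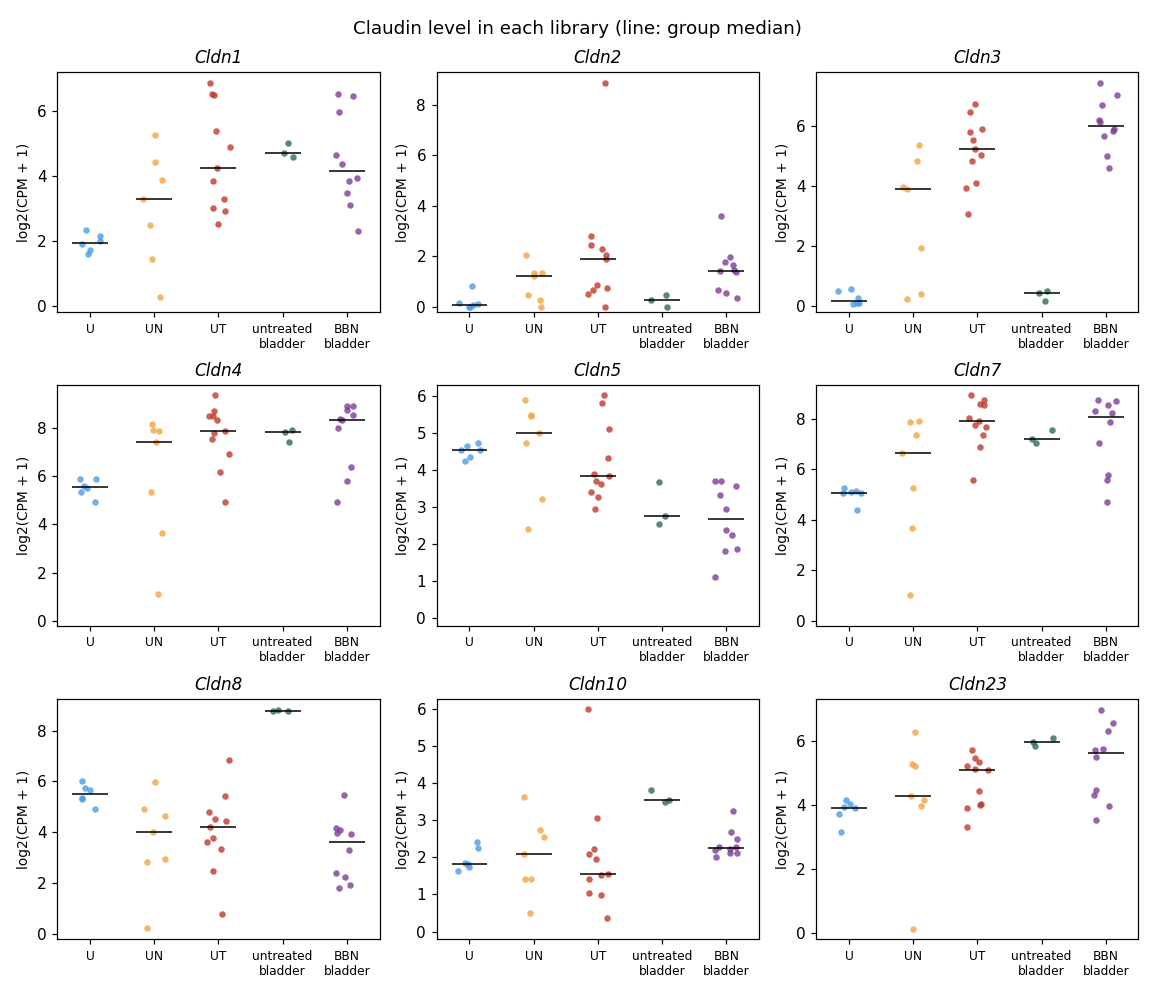
Level of each of the 9 claudins as log2(CPM + 1) (vertical axis) in the 37 libraries, 1 point per library, by group (horizontal axis), with a line at the group median. Cldn3 lay near 0 in U and untreated bladder and above in all UT and BBN bladder libraries, and Cldn8 was highest in the 3 untreated bladders.

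Cldn3, a sealing claudin, was scarce in untreated tissue and abundant in most tissue of BBN-treated mice. In U it was at 0.487 and 0.414 CPM in the right and left ureter of mouse 1, at 0.0532 and 0.0620 CPM in those of mouse 2, and at 0.0770 and 0.195 CPM in those of mouse 3, which came to 19.5 counts over the 6 libraries. The 3 untreated bladders had 0.348, 0.400 and 0.120 CPM, or 13 counts in all. These values rest on few counts, and no library was at 0.

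In UT, Cldn3 ran from 7.38 CPM (UT 9) through a median of 36.4 CPM to 105 CPM (UT 5L), so that all 11 libraries were above the highest U library. The UN libraries of mice 1, 2, 3, 4, 6, 7 and 9 had 27.1, 0.183, 40.2, 13.7, 0.321, 14.5 and 2.81 CPM. Thus 5 of 7 UN libraries lay above U. UN 2 and UN 6, those with the least epithelial RNA, lay within it, and UN 6 was also the ureter library of lowest total. BBN bladders 1 to 10 had 49.7, 58.2, 23.0, 55.8, 102, 31.0, 71.3, 129, 68.5 and 171 CPM, every one above the highest untreated bladder.

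Cldn3 was called in each of the 3 comparisons of BBN-treated with untreated tissue. Its log2 fold change was 5.87 ± 0.97 in UN against U (adjusted p = 0.000844, edgeR), 7.39 ± 1.003 in UT against U (adjusted p = 2.32e-05) and 8.24 ± 0.72 in BBN against untreated bladder (adjusted p = 1.6e-05). UN and UT shared the U libraries as controls. Cldn3 passed the low-count filter through the libraries in which it was high, in the bladder through the BBN bladders and in the ureter through those of BBN-treated mice, so the calls are no evidence apart from the levels above. With UN and U alone it did not pass, and the call in UN rests on the joint fit. In UT against UN, its log2 fold change of 1.52 ± 0.65 did not pass the test (adjusted p = 0.151), though it was called in 2 of 16 alternatives, DESeq2 (1.54, adjusted p = 0.0946) and without UT 9 (1.63, adjusted p = 0.0943). The response in ureter, UN against U, minus that in bladder was -2.38 ± 1.30 on the log2 scale, which did not pass the test of the difference itself (adjusted p = 0.483).

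Cldn8 went the other way in the bladder. BBN bladders 1 to 10 had 2.84, 8.88, 4.22, 3.71, 14.2, 2.53, 43.1, 16.9, 14.6 and 15.9 CPM against 437 to 452 CPM in untreated bladder. Even the highest, from mouse 7, was far under the lowest untreated bladder. Cldn8 fell by 4.96 ± 0.52 on the log2 scale (adjusted p = 4.95e-05, edgeR).

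In the ureter, Cldn8 was not called in the fit reported. UN had 0.183 to 62.7 CPM (median 15.2) and UT 0.720 to 114 CPM (median 17.4), against 29.4 to 63.3 CPM in U. Of the UN libraries, 5 of 7 were below every U library, and of the UT libraries 9 of 11 were below and 1, UT 4, was above. Log2 fold changes were -1.27 ± 0.76 in UN (adjusted p = 0.273, edgeR), -1.11 ± 0.67 in UT (adjusted p = 0.185) against U, and 0.16 ± 0.67 in UT against UN (adjusted p = 0.894). Without UT 4, which held the kidney tubule genes, UT against U was called at -1.69 (adjusted p = 0.0298), and limma voom with mouse as a random effect called it at -1.92 (adjusted p = 0.0240).

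The difference between the BBN responses of ureter and bladder was itself called for Cldn8, at 3.65 ± 0.90 on the log2 scale (adjusted p = 0.0372, edgeR), and for no other claudin. In this interaction, 1.51% of 18786 genes were called with the ureter response higher and 0.548% with it lower (284 and 103 genes, against 454 and 472 in DESeq2). The call was lost when any 1 of the 3 untreated mice was left out (3.45 to 3.82, adjusted p 0.248 to 0.329) and with 1 library per mouse (3.61, adjusted p = 0.291). With the mouse as a random effect in limma voom it was 2.94 (adjusted p = 0.226). Of the markers, 2 of 7 urothelial genes, Upk2 (3.81 ± 0.90) and Upk3b (2.76 ± 0.73), were also called with the ureter response higher. So was 1 of 8 basal and squamous genes, Krt15 (5.25 ± 1.26). The median was 2.76 over the urothelial list and -0.10 over all genes. The part of these markers in the Cldn8 difference was not tested.

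Over BBN against untreated bladder as a whole, 2 claudins were called higher, Cldn3 and Cldn2, and 1 lower, Cldn8, among backgrounds of 7.61% higher and 5.74% lower of 18050 genes. That split of 1373 genes higher and 1036 lower became 4646 and 1153 in DESeq2 and 3100 and 1301 with the first range of library codes alone, so the share of claudins higher is to be read against a background that moves with the tool. The median over the 9 claudins was 0.49, beside 0.25 over all genes. Cldn3 (10 of 10 above), Cldn8 and Cldn10 (10 of 10 below) separated the bladder groups, as did 5.16% of genes upward and 13.8% downward. Of the markers, 5 of 7 urothelial genes were lower (summed level 1941 to 8391 CPM in BBN against 16835 to 17556 CPM in untreated bladder) and 6 of 8 basal and squamous genes were higher (620 to 23594 against 1828 to 2078 CPM), with 1 of 10 epithelial genes lower. Fibroblast markers were lower for 3 of 6 (688 to 4704 against 4163 to 5966 CPM), and smooth muscle markers were called for 0 of 8, though their sum did not overlap (1011 to 7577 against 9289 to 11153 CPM). Of 8 immune cell markers 2 were higher, S100a8 and S100a9, and of 10 kidney tubule genes tested 1, Fxyd4, while 1 of 10 endothelial markers, Kdr, was lower. Their part in the claudin differences was not tested.

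**Figure D2:**
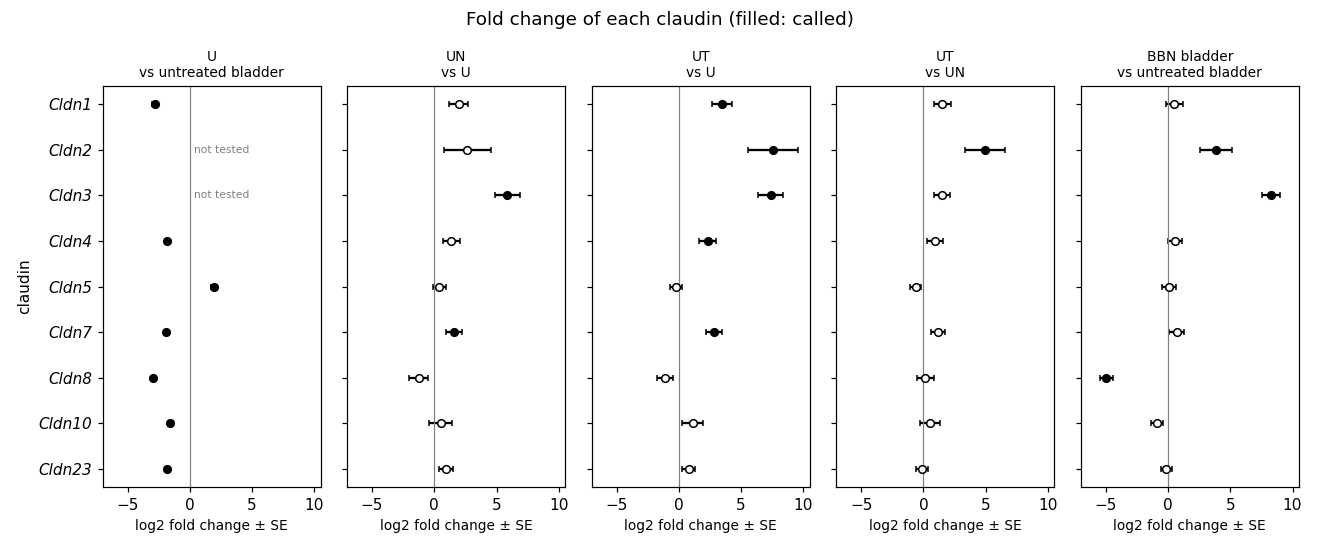
Log2 fold change (horizontal axis) of each claudin (vertical axis) in the 5 comparisons between groups, with bars of 1 SE and filled points where a gene was called. Cldn3 was 5.87 to 8.24 in the 3 comparisons of BBN-treated with untreated tissue, and Cldn8 was -4.96 in the bladder.

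Cldn8 and Cldn3 stood in opposite places in the makeup of the 9 claudins. By summed CPM per kilobase, Cldn8 made up a median of 42.6% in untreated bladder, 21.9% in U, 3.41% in UN, 2.001% in UT and 1.17% in BBN bladder. Cldn3 made up 0.0698%, 0.128%, 3.80%, 8.12% and 16.3% in the same groups. Cldn3 was above Cldn8 per kilobase in 0 of 3 untreated bladders, 0 of 6 U, 4 of 7 UN, 10 of 11 UT and 10 of 10 BBN bladders. Cldn4 varied less, from 28.3% in untreated bladder to 39.4% in UN. UN 2, with little epithelial RNA, was unlike the rest, and Cldn5 made up 77.0% of its summed claudin level. The summed level of the 9 had medians of 441 CPM per kilobase in untreated bladder and 484 in BBN bladder, and of 88.2 in U, 236 in UN and 402 in UT.

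**Figure D3:**
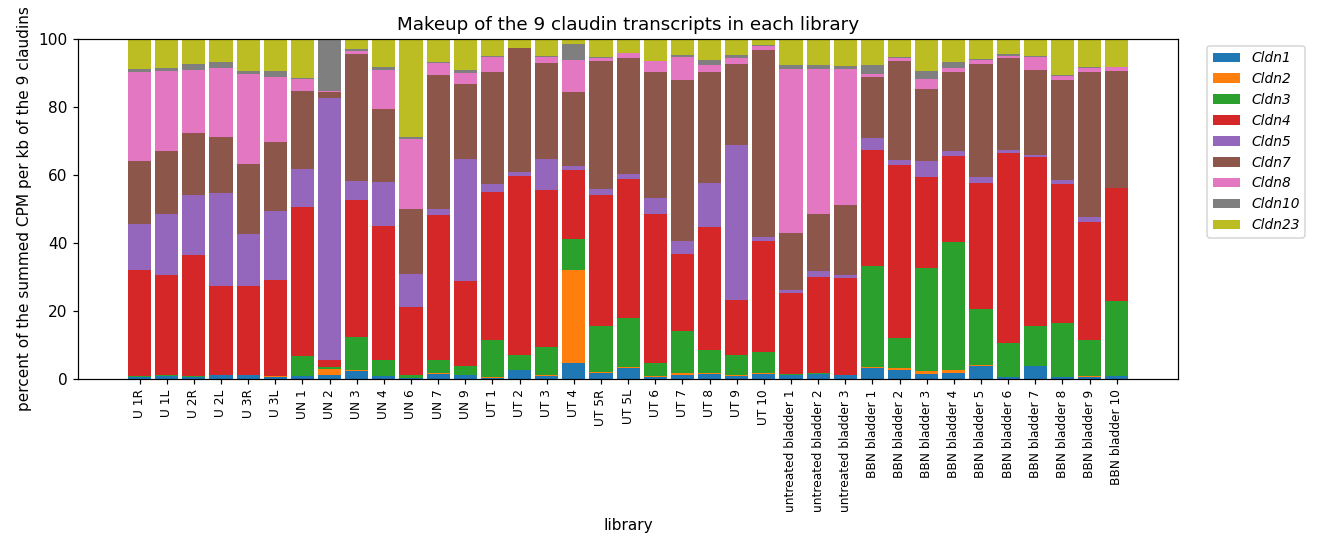
Share of each claudin in the summed CPM per kilobase of the 9 (vertical axis, percent), 1 bar per library, grouped by tissue and treatment. The Cldn8 share had a median of 42.6% in untreated bladder and 1.17% in BBN bladder, and the Cldn3 share one of 0.0698% and 16.3%.

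The pattern of Cldn3 and Cldn8 was also present per 1000 CPM of the epithelial markers. Cldn3 was at 0.0315 to 0.237 in U and 0.0122 to 0.0417 in untreated bladder. It was at 0.393 to 5.92 in UN, 2.51 to 16.0 in UT and 6.67 to 25.6 in BBN bladder, so that no library of a BBN-treated mouse overlapped the untreated group of its organ. Of the UN values, the highest (5.92, UN 2) rests on 2 counts and the lowest (0.393, UN 6) on 1.5 counts, and both libraries lay within U by CPM. Cldn8 on this scale was at 21.8 to 30.8 in U, 0.729 to 18.6 in UN and 0.0922 to 22.4 in UT, with 7 of 7 UN and 10 of 11 UT libraries below U. In the bladder it was at 0.682 to 5.39 with BBN and 43.2 to 46.2 without. Cldn10 lost its separation in the bladder on this scale, at 0.267 to 4.39 with BBN and 0.987 to 1.36 without, with 3 of 10 BBN bladders above and 7 below. The 3 above were BBN bladders 1, 3 and 4 (4.39, 2.06 and 1.59), those with an RNA integrity number under 5. The other 7, at 0.267 to 0.974, all lay below the untreated bladders. On this scale, 0.95% of 15374 genes lay above U in every UN library and 0.202% below, 1.43% and 3.4% did so in UT, and 10.3% and 3.27% did so in BBN against untreated bladder.

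**Figure D4:**
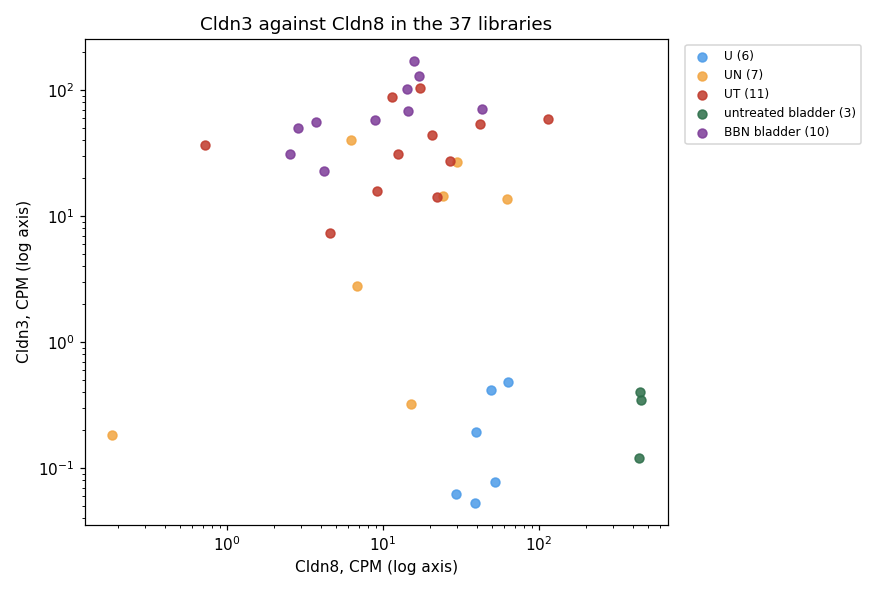
Cldn3 (vertical axis) against Cldn8 (horizontal axis) in CPM, both axes logarithmic, 1 point per library, coloured by group. The 3 untreated bladders lie at 437 to 452 CPM of Cldn8 and under 0.5 CPM of Cldn3, and the 10 BBN bladders at 2.53 to 43.1 CPM of Cldn8 and 23.0 to 171 CPM of Cldn3.

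Cldn4, which seals and with Cldn8 forms the chloride path of the collecting duct, and Cldn7 had the highest medians per kilobase in BBN-treated tissue and rose in UT against U. Per kilobase Cldn4 had a median of 129 and Cldn7 of 123 in UT, in that order in 7 of 11 libraries, and 179 and 137 in BBN bladder, in that order in 8 of 10. Cldn7 ran from 46.7 CPM through a median of 239 to 485 CPM in UT and from 19.8 through 32.6 to 37.01 CPM in U, with no overlap. Cldn4 ran from 29.6 through 235 to 657 CPM in UT and from 29.1 through 46.2 to 57.8 CPM in U, with UT 9 within the range of U and the other 10 above it. Cldn7 rose by 2.80 ± 0.65 (adjusted p = 0.00163, edgeR) and Cldn4 by 2.30 ± 0.69 (adjusted p = 0.0102) on the log2 scale. With 1 library per mouse, Cldn4 was at 2.23 and was not called (adjusted p = 0.125).

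Cldn1, whose loss opens the skin barrier, rose as well. It was at 4.70 to 117 CPM in UT (median 17.9) against 2.02 to 4.01 CPM in U (median 2.85), again without overlap, and its log2 fold change was 3.44 ± 0.81 (adjusted p = 0.00181, edgeR). The high values were those of UT 4 (117 CPM), UT 5L (90.8 CPM) and UT 2 (89.1 CPM). Cldn23 was at 9.03 to 51.4 CPM in UT and 7.87 to 16.8 CPM in U, and its 0.80 ± 0.52 did not pass the test (adjusted p = 0.221).

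Thus 5 of the 9 claudins (Cldn1, Cldn2, Cldn3, Cldn4 and Cldn7) were called higher in UT than in U and 0 lower, where 18.7% of 15658 genes were called higher and 12.3% lower. The median was 2.30 over the claudins and 0.11 over all genes. Cldn1, Cldn3 and Cldn7 lay above U in 11 of 11 UT libraries, as did 15.1% of all genes. Of the epithelial markers, 9 of 10 were higher in UT. Of the basal and squamous markers, 8 of 8 were higher (summed level 469 to 11001 CPM in UT against 104 to 168 CPM in U), and of the urothelial markers 4 of 7 were lower (406 to 3005 against 1115 to 2281 CPM). Immune cell markers were higher for 6 of 8, smooth muscle markers lower for 6 of 8 and adipocyte markers lower for 5 of 5. Of 10 endothelial markers 1, Kdr, was lower, and of 6 fibroblast markers 1, Col1a1, was higher. Of the kidney tubule genes, 6 of the 7 tested were higher (summed over all 12, 2827 CPM in UT 4 and 25.0 to 242 CPM in the other 10 UT libraries, against 9.26 to 19.8 CPM in U). Their part in the claudin differences was not tested.

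Per 1000 CPM of the epithelial markers, Cldn7 was at 30.3 to 62.1 in UT and 17.7 to 19.2 in U, still without overlap. Cldn4 was at 19.1 to 84.1 in UT and 23.1 to 34.1 in U, with 7 of 11 UT libraries above and 1 below. Cldn1 was at 0.777 to 23.1 in UT and 1.11 to 3.19 in U, with 6 of 11 above and 1 below. Cldn23 was below U on that scale in 11 of 11 UT libraries (1.44 to 7.14 against 7.27 to 8.44).

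Between UN and U, 2 claudins were called higher, Cldn3 and Cldn7, and 0 lower, where 12.5% of 15658 genes were called higher and 1.21% lower. In limma voom, where mouse was a random effect, that balance was 751 genes higher and 550 lower in place of 1950 and 189. The median was 1.38 over the claudins and 0.13 over all genes. Cldn7 had 162, 1.005, 240, 99.3, 11.6, 233 and 37.3 CPM in the UN libraries of mice 1, 2, 3, 4, 6, 7 and 9. UN 2 and UN 6 were below all U libraries and the other 5 at or above 37.3 CPM. The log2 fold change was 1.62 ± 0.64 (adjusted p = 0.0977, edgeR), close to the threshold, and it was not called in 10 of the alternatives (adjusted p 0.102 to 0.395).

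Cldn4 in the same libraries had 288, 1.19, 241, 169, 11.3, 234 and 39.5 CPM, and Cldn1 had 13.7, 1.74, 37.6, 8.75, 0.214, 20.5 and 4.57 CPM. UN 2 and UN 6 were again the lowest for both. Cldn4 (1.38 ± 0.70, adjusted p = 0.195, edgeR), Cldn1 (1.94 ± 0.79, adjusted p = 0.104) and Cldn23 (0.92 ± 0.57, adjusted p = 0.284) did not pass the test. Cldn1 was called in 9 of 18 alternatives, among them DESeq2, the 2 groups alone and the RNA integrity number as a covariate (adjusted p 0.0442 to 0.0958 in the 9, and 0.102 to 0.398 in the others). Without UN 2, a choice made after seeing the data, 5 claudins were called higher, Cldn1, Cldn3, Cldn4, Cldn7 and Cldn23. Of the epithelial markers 3 of 10, and of the basal and squamous markers 8 of 8, were higher in UN than in U. So were 4 of 8 immune cell markers (122 to 682 CPM summed in UN against 111 to 217 CPM in U) and 1 of 7 kidney tubule genes tested, Fxyd4, while 1 of 7 urothelial markers, Upk1a, was lower. Their part in the claudin differences was not tested.

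In the bladder, none of these 4 passed the test. Cldn4 was at 29.2 to 485 CPM (median 325) with BBN and 172, 226 and 240 CPM without, and Cldn7 at 24.7 to 423 CPM (median 266) and 129, 145 and 188 CPM. The ranges overlapped for both. BBN bladders 1, 3 and 4, those of low total, had 29.2 to 82.1 CPM of Cldn4 and the other 7 had 252 to 485 CPM, and for Cldn7 these were 24.7 to 53.2 and 131 to 423 CPM. Cldn1 was at 3.94 to 92.3 CPM with BBN and 22.9 to 31.6 CPM without, and Cldn23 at 10.7 to 126 CPM and 57.1 to 67.8 CPM. Log2 fold changes were 0.55 ± 0.56 for Cldn4 (adjusted p = 0.528, edgeR), 0.69 ± 0.58 for Cldn7 (adjusted p = 0.431), 0.49 ± 0.68 for Cldn1 (adjusted p = 0.662) and -0.14 ± 0.45 for Cldn23 (adjusted p = 0.860). With the bladders of an RNA integrity number under 5 left out, Cldn7 was called at 1.07 (adjusted p = 0.0183).

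Among the pore-forming claudins, Cldn2, the cation and water pore of leaky epithelia such as the proximal tubule, was called higher in UT and in BBN bladder. It was scarce in untreated tissue, with 16 counts over the 6 U libraries, 2 of them at 0, and 9 counts over the 3 untreated bladders, 1 of them at 0. In UT it was at 0 in UT 2, had a median of 2.74 CPM and reached 462 CPM in UT 4, while the next highest library, UT 5R, had 5.997 CPM. UN was at 0 to 3.16 CPM (median 1.37) and BBN bladder at 0.271 to 11.03 CPM (median 1.71), with 9 of 10 BBN bladders above the untreated ones. Like Cldn3, it passed the low-count filter through the libraries in which it was high.

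Cldn2 had a log2 fold change of 7.57 ± 2.01 in UT against U (adjusted p = 0.00437, edgeR) and of 3.83 ± 1.29 in BBN against untreated bladder (adjusted p = 0.0801). Against UN, it was the only claudin called in UT, at 4.94 ± 1.58 (adjusted p = 0.0846), where 1.32% of 15658 genes were called higher and 4.2% lower, and where the median was 0.92 over the claudins and -0.02 over all genes. Without UT 4, UT against U was 3.36 (adjusted p = 0.0117, still called) and UT against UN was 0.76 (adjusted p = 0.566). DESeq2 did not call UT against UN either (0.73, adjusted p = 0.573). With the mouse as a random effect in limma voom, UT against U was 4.01 (adjusted p = 0.124). The bladder call was lost with no low-count filter (3.77, adjusted p = 0.109) and when any 1 untreated mouse was left out (3.23 to 4.70, adjusted p 0.167 to 0.274). For UN against U, 2.64 ± 1.90 did not pass the test (adjusted p = 0.363).

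Of the markers, 1 of 7 kidney tubule genes tested, Slc34a1, was higher in UT than in UN, and 5 of 8 smooth muscle genes and 1 of 7 urothelial genes, Upk1a, were lower. Their part in the Cldn2 difference was not tested.

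The kidney tubule genes of UT 4 are given because of its Cldn2 level. Their sum without Fxyd4, which the other libraries held too, was 2726 CPM in UT 4 and 7.20 to 74.3 CPM in the other 36. Umod, the uromodulin of the thick ascending limb, was at 931 CPM, the proximal phosphate carrier Slc34a1 at 514 CPM, the collecting duct water channel Aqp2 at 241 CPM and the loop cotransporter Slc12a1 at 226 CPM. Of the claudins of the thick ascending limb outside the list, Cldn16 was at 10.7 and Cldn19 at 7.87 CPM in UT 4. UT 4 was also the highest UT library for Cldn1, Cldn8 and Cldn10. The part of kidney RNA in its claudin levels was not tested.

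Cldn10, whose isoforms form cation or anion pores, was low in all groups apart from UT 4. It was at 0.288 to 62.3 CPM in UT (median 1.95, the next highest 7.34), 0.428 to 11.2 CPM in UN (median 3.29) and 2.08 to 4.36 CPM in U (median 2.55). The ureter groups overlapped, and neither UN against U (0.53 ± 0.92, adjusted p = 0.732, edgeR) nor UT against U (1.09 ± 0.86, adjusted p = 0.315) passed the test. Without UT 4 the latter was -0.54, and without UN 2 the former was -0.16. BBN bladders had 3.05 to 8.52 CPM (median 3.75) and untreated ones 10.3, 13.1 and 10.7 CPM. All 10 lay below all 3, yet the log2 fold change of -0.91 ± 0.49 did not pass the test (adjusted p = 0.223). It was called at -1.49 with the bladders of an RNA integrity number under 5 left out (adjusted p = 0.00255).

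Cldn5, the main claudin of the blood-brain barrier, was higher in ureter than in bladder without BBN, as given above, and was called in no comparison of BBN-treated tissue. It was at 18.0 to 25.4 CPM in U (median 22.3), 4.28 to 58.1 CPM in UN (median 31.3), 6.68 to 65.0 CPM in UT (median 13.4), 1.15 to 12.1 CPM in BBN bladder (median 5.50), and 5.71, 11.7 and 4.87 CPM in untreated bladder. The ureter groups overlapped one another, as did the bladder groups. Log2 fold changes were 0.40 ± 0.53 in UN (adjusted p = 0.648, edgeR) and -0.22 ± 0.48 in UT (adjusted p = 0.734) against U, -0.61 ± 0.45 in UT against UN (adjusted p = 0.389), and 0.07 ± 0.57 with BBN in bladder (adjusted p = 0.945). The 10 endothelial markers summed to 351 to 684 CPM in U, 133 to 729 CPM in UN, 180 to 1040 CPM in UT, 299 to 399 CPM in untreated bladder and 50.1 to 496 CPM in BBN bladder. Across the 37 libraries, Cldn5 and this sum had a Pearson correlation of 0.80 on the log2(CPM + 1) scale, given as a description. With the summed adipocyte markers the correlation was 0.71, with the immune cell markers 0.54 and with the fibroblast markers 0.53.

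UT and UN came from both sides of the same mouse in 7 mice, and the BBN bladder from those mice as well. Cldn3 was higher in UT than in UN in 7 of 7 mice, by 1.95 ± 1.72 log2(CPM + 1) units (mean ± SD). Cldn8 was higher in UT in 6 of 7, by 0.52 ± 0.63, Cldn2, Cldn4, Cldn7 and Cldn10 in 5 of 7, Cldn1 and Cldn5 in 4 of 7 and Cldn23 in 3 of 7. UN 2 and UN 6, with the least epithelial RNA, enter these differences. Per 1000 CPM of the epithelial markers, Cldn8 was lower in UT than in UN in mice 2 (0.0922 against 5.92), 6 (3.94 against 18.6) and 9 (3.60 against 4.33), and higher in the others. Cldn3 was lower in UT only in mouse 2 (4.67 against 5.92, the latter on 2 counts). With the mouse as a fixed block, 0 claudins were called between the sides, and Cldn2 was at 1.98 (adjusted p = 0.799, edgeR). Against the bladder of the same mouse, Cldn5 was higher in UN in 7 of 7 mice and in UT in 9 of 10, and Cldn3 was lower in UN in 6 of 7 and in UT in 7 of 10. In the 3 untreated mice, Cldn1, Cldn4, Cldn7, Cldn8, Cldn10 and Cldn23 were lower and Cldn5 higher in the ureter than in the bladder of the same mouse, in 3 of 3. This follows from the lack of overlap between U and untreated bladder given above and is no further support.

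**Figure D5:**
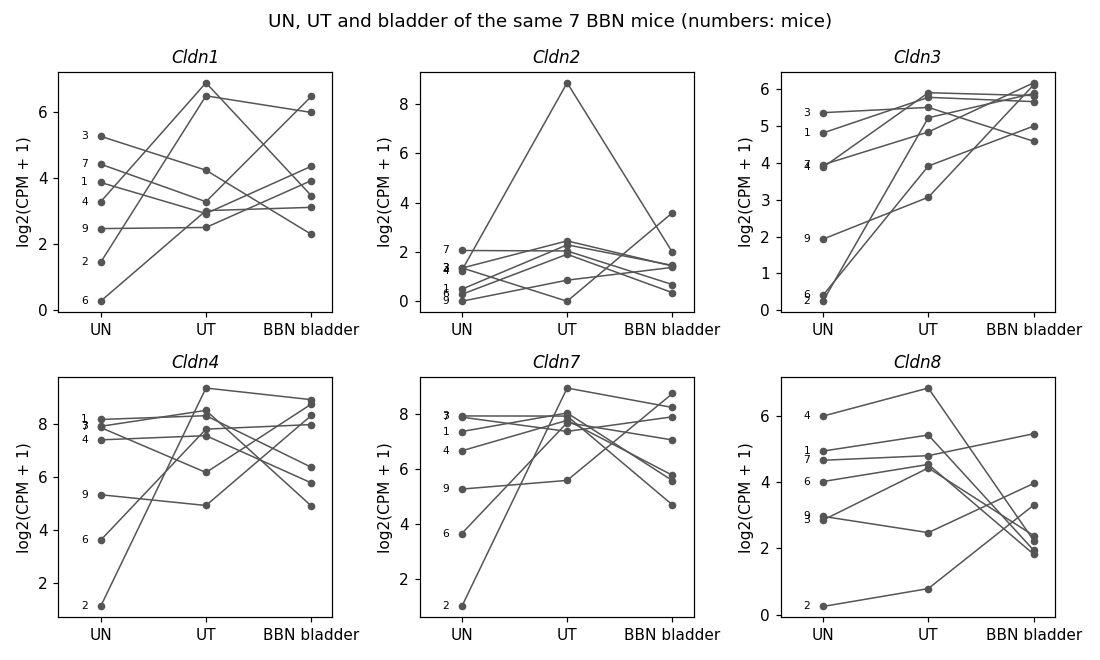
Levels of 6 claudins as log2(CPM + 1) (vertical axis) in UN, UT and BBN bladder (horizontal axis), with a line for each of the 7 mice that gave all 3. Cldn3 is higher in UT than in UN in 7 of 7 lines.

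The other membrane proteins of the tight junction were followed as 12 genes, all of which passed the filter. The shares of all genes called, given above, serve as the background for this and the next lists. In UN against U, 3 were higher and 0 lower: Crb3 (2.01 ± 0.59), an apical polarity protein, Lsr (1.56 ± 0.59), which marks the contacts of 3 cells, and Ocln (1.26 ± 0.49), occludin. In UT against U, 6 were higher, including Lsr (2.66 ± 0.59), Ocln (1.90 ± 0.47) and F11r (1.40 ± 0.38), the junctional adhesion molecule A, and 3 were lower, including Jam2 (-1.23 ± 0.38), an endothelial relative, beside 18.7% of all genes higher and 12.3% lower. The median was 1.08 over the 12 genes and 0.11 over all genes. In UT against UN there were 0. In BBN against untreated bladder, Crb3 was higher (1.66 ± 0.59), and Ildr1 (-2.01 ± 0.50), of the same family as Lsr, Igsf5 (-1.59 ± 0.38) and Jam3 (-1.02 ± 0.35) were lower. In U against untreated bladder, 10 were lower, including Ocln (-2.25 ± 0.15), Lsr (-2.01 ± 0.12) and F11r (-1.24 ± 0.11), and 1 higher, Jam2 (1.28 ± 0.19), beside 14.3% and 15.7% of all genes.

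Of the scaffold and polarity proteins beneath the strands, 19 genes were tested. From U to UN, Tjp3 (1.24 ± 0.38), the zonula occludens protein 3, and Pard6b (1.54 ± 0.56) were higher, and Cgnl1 (-1.14 ± 0.41), paracingulin, and Mpdz (-1.09 ± 0.36) were lower. In UT against U, 4 were higher, among them Tjp3 (1.93 ± 0.37) and Cgn (1.33 ± 0.50), cingulin, and 2 lower, among them Cgnl1 (-1.67 ± 0.36), near the shares of all genes (18.7% and 12.3%), and the median was 0.19 beside 0.11 over all genes. Between UT and UN 1 was called, Ybx3 (-1.20 ± 0.41), a factor that binds zonula occludens protein 1 (4.2% of all genes were called lower). That call was lost with the mouse as a fixed block, where 0 of all genes tested were called. With BBN in the bladder 1 was called, Amotl2 (1.46 ± 0.52), beside 7.61% of all genes higher. In U against untreated bladder 3 were higher and 5 lower, beside 15.7% and 14.3% of all genes, the latter including Tjp3 (-2.41 ± 0.12) and Pard3 (-1.44 ± 0.12).

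Transcription factors known to act on claudin or epithelial junction genes were a list of 15, of which 14 were tested. Of these, 3 were higher in UN than in U, Elf3 (1.89 ± 0.62), Ovol1 (1.69 ± 0.62) and Ovol2 (1.63 ± 0.62), all of them factors of epithelial differentiation. In UT against U, 7 were higher, among them Elf3 (3.23 ± 0.64) and Klf5 (2.35 ± 0.54), and 3 lower, among them Pparg (-2.17 ± 0.48) and the E-box repressor Zeb2 (-1.06 ± 0.37), beside 18.7% and 12.3% of all genes. The median was 1.01 over the list and 0.11 over all genes. Pparg acts in urothelium and in fat, and 5 of 5 adipocyte and 4 of 7 urothelial genes were lower in UT as well. In UT against UN 0 were called. With BBN in the bladder, 1 was called, Pparg (-2.09 ± 0.38), where 0 of 5 adipocyte genes were called and 5 of 7 urothelial genes were lower. In U against untreated bladder 2 were higher, among them Pparg (1.03 ± 0.13), and 9 lower, among them Klf5 (-2.51 ± 0.19), Elf3 (-2.24 ± 0.16) and Trp63 (-2.18 ± 0.18), beside 15.7% and 14.3% of all genes. There 5 of 5 adipocyte genes were higher and 7 of 7 urothelial genes lower. The part of these markers in the Pparg differences was not tested.

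Of the 22 other claudins in the table, 5 passed the filter in the ureter comparisons, 6 in the bladder and 4 in U against untreated bladder. Cldn6, a claudin of embryonic epithelia, was at 0 counts in the 3 untreated bladders and had 0 to 20.8 CPM in the 10 BBN bladders, 2 of them at 0. Its mean of 6.60 CPM was at least 101-fold higher than the 0.0652 CPM that 3 counts over the untreated group would give, and it was called (adjusted p = 0.0216, edgeR), having passed the filter through the BBN bladders. In UT it was at 0 in 4 of 11 libraries and reached 22.0 CPM, against 2 counts over the 6 U libraries, and was called higher (adjusted p = 0.00267). There it passed the filter through the UT libraries, so neither call is evidence apart from the levels. Cldn22 (-3.14 ± 0.92) and Cldn24 (-3.04 ± 0.92) were lower in UT than in U and higher in U than in untreated bladder (6.49 ± 0.44 and 6.41 ± 0.51). Against untreated bladder both genes passed the filter through the U libraries, in which they were high. They lie 1.677 kb apart on the same strand and hold fractional counts, so their separate levels are uncertain. Cldn15, of the intestine, was higher in U than in untreated bladder (1.31 ± 0.35).

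The genes whose levels ran most like each claudin over the 37 libraries were found by Pearson correlation of log2(CPM + 1) among 15374 genes, as a description in which libraries share tissue makeup. Cldn4 ran with Serinc2 (0.96) and Cldn7 (0.96), and Cldn7 with Elf3 (0.97) and Ckmt1 (0.97). Cldn3 ran with Upk3bl (0.97), 2310007B03Rik (0.96) and Lrrc26 (0.95). Cldn8 ran with the sodium channel subunit Scnn1g (0.94), Sh3gl2 (0.93) and Paqr5 (0.91), and Cldn23 with Spint1 (0.93), Psapl1 (0.91) and Foxa1 (0.91). Cldn5 ran with S1pr1 (0.89) and Gpr182 (0.85), both known from endothelium, and with Angptl4 (0.86), made by fat among other tissues. Cldn1 ran with Dennd2c (0.88), Rnf39 (0.87) and Il20ra (0.86). Cldn2 ran with Ggt1 (0.88), Habp2 (0.88) and Aoc1 (0.87), and Cldn10 with Crym (0.77), Bhmt2 (0.77) and Amn (0.76), where UT 4 holds the highest value of both claudins. Cldn4 (0.94) and Cldn7 (0.94) also ran with the summed epithelial markers.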

How the data were processed

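Total RNA was extracted with the miRNeasy kit and libraries were made with SMARTerHT and NexteraXT kits, per the labels. The authors deposited estimated counts per gene symbol for 37 libraries, not normalized, of which 21.1% of the values above 0 are fractional. The submitters' processing notes name TopHat2 2.1.1, Cuffdiff 2.2.1 and GRCm38/mm10. The counting program and its use of strand are not given in the sources used here. Each column was assigned by its name, leaving 0 without a sample.

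Counts were rounded and tested by the quasi-likelihood method of edgeR 4.0.16 (R 4.3.3) at its defaults, after TMM scaling and filterByExpr, with Benjamini-Hochberg adjustment over all genes tested. The thresholds of the study were used, an FDR under 0.1 with at least a fold change of 2. The 24 ureter libraries (UT, UN and U) were fitted together, the 13 bladders apart, U and untreated bladder in a fit of 9 libraries, and the difference between organs as an interaction over 26. The procedure was checked on simulated counts. All labelled libraries entered, including UT 9 and the bladder of mouse 6, which carries a tumor letter in its library name. Levels were computed in Python 3.11.15 (pandas 2.3.3, numpy 2.4.6, scipy 1.17.1) and drawn with matplotlib 3.10.9, with a pseudocount of 1 CPM on the log2 scale. Gene models are those of GENCODE vM21 on GRCm38, with the length of merged exons. No library was taken as a copy of another, since the chi-square of any pair in a group, divided by its degrees of freedom, was 7.72 or more.

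The 9 claudins, the other lists and the tests were chosen with earlier results of these data known. All 9 claudins were named, with at most 4 called genes of each other list, those of the highest mean CPM, and the 3 genes most like each claudin among genes with a mean of at least 1 CPM. Some genes that met this rule are not reported here. Cldn16 and Cldn19 in UT 4, and the kidney genes named there, were chosen after their values were seen. U and the ureters of mouse 5 hold both sides of a mouse, so p-values measure the spread between libraries, which is partly within animals. UT and UN of 7 mice are paired by animal. Their deviations from the group means correlated with a median of -0.00278 in the 7 pairs, against -0.0183 in 70 pairs of different mice.

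Alternatives were DESeq2 1.42.0, RLE scaling, other low-count filters, the 2 groups alone, the mouse as a block (edgeR) or random effect (limma 3.58.1, voom), the RNA integrity number (RIN) as a covariate or with libraries under 5 left out, the first range of library codes alone, 1 library per mouse, and leaving out UT 9, UN 6, the bladder of mouse 6 or each untreated mouse. Fits without UN 2, without UN 2 and UN 6, and without UT 4 were chosen after seeing the data. Counting error limits genes of few counts, such as Cldn2 and Cldn3 in untreated tissue.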

Additional observations from a re-analysis of the deposited data

Results flagged for a closer look

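In 5 of the 27 combinations of a claudin with a group of 4 to 10 libraries, 1 library lay far from the others by Dixon's criterion on log2(CPM + 1), where chance gives about 1 in 20. Cldn2 in U 3L was at 0.83 (0.781 CPM), and the nearest U library at 0.15. Cldn2 in BBN bladder 2 was at 3.59 (11.03 CPM), and the nearest at 1.98. Cldn7 in U 2L was at 4.38 (19.8 CPM), below the nearest at 5.05. Cldn10 in BBN bladder 1 was at 3.25 (8.52 CPM), and the nearest at 2.67. Cldn23 in UN 2 was at 0.13 (0.0914 CPM), below the nearest at 3.97, in the library whose epithelial markers summed to 30.9 CPM.

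The response of Cldn8 to BBN differed between the organs by 3.65 on the log2 scale (ureter, UN against U, minus bladder, adjusted p = 0.0372, edgeR), from 44.3 to 15.2 CPM in median between U and UN and from 443 to 11.6 CPM between untreated and BBN bladder. The call was lost without any 1 of the untreated mice.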

How the results depend on the processing

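Cldn3 was called in UT against U (6.92 to 8.41 on the log2 scale over 18 alternatives), in UN against U (5.23 to 6.89 over 17) and in BBN against untreated bladder (7.85 to 8.51 over 11), and Cldn8 in the bladder (-5.05 to -4.69 over 11), under all of these. In UN against U with the 2 groups alone, Cldn3 and Cldn2 did not pass the low-count filter and have no value. In U against untreated bladder 7 claudins were called in 11 of 11 alternatives, and in UT against U 4 to 6.

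In UN against U, where 2 claudins were called, DESeq2 called 4. It was 1 with RLE scaling, no low-count filter, the 2 groups alone (Cldn1), voom, libraries of RIN at or above 5 and 1 library per mouse, and 1 to 1 without each untreated mouse. It was 5 without UN 2 and 5 without UN 2 and UN 6. In UT against UN, where 1 was called, DESeq2 called 2 (Cldn1 and Cldn3, not Cldn2) and the fit without UT 9 called 2 (Cldn2 and Cldn3). It was 0 with the 2 groups alone, RIN as a covariate, RIN at or above 5, the first library codes, 1 library per mouse, and without UN 6, UN 2, both of these, or UT 4. In the bladder, where 3 were called, RIN as a covariate and RIN at or above 5 each gave 5, and no low-count filter and each untreated mouse left out gave 2, with Cldn2 lost. For the difference between organs, where 1 was called, RIN at or above 5 gave 2, 1 library per mouse 0, and leaving out each untreated mouse 0 to 0.

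With the mouse as a replicate block, 0 claudins were called in UT against UN (edgeR, fixed block). As a random replicate block in voom, 0 were called there, 1 in UN against U, 5 in UT against U (4 higher and 1 lower, with Cldn2 lost at an adjusted p of 0.124 and Cldn8 gained as lower at -1.92, adjusted p = 0.0240) and 0 for the difference between organs.

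Signs turned for claudins that were not called. Cldn10 in UN against U was -0.025 in voom and -0.034 without UN 2 and UN 6, and ran from -0.16 (without UN 2) to 0.63 over the fits that left out a library or mouse. In UT against U it was -0.55 in DESeq2, -0.40 in voom and -0.54 (without UT 4) to 1.20 with samples left out, and in UT against UN -1.03 in DESeq2, -0.38 in voom, -0.42 with RIN as a covariate and -1.07 (without UT 4) to 1.25 with samples left out. In UT against UN, Cldn23 was 0.39 in voom and 0.071 with the first library codes, and Cldn8 was -0.059 without UN 2, -0.033 without UN 2 and UN 6, and -0.42 (without UT 4) to 0.28 with 1 library left out. In the bladder, Cldn23 was 0.11 with RIN as a covariate and 0.14 with RIN at or above 5, and Cldn5 was -0.11 and -0.18 without untreated mice 1 and 3 and 0.52 without mouse 2. In the difference between organs, Cldn5 was -0.18 to 0.57 and Cldn2 -2.54 to 1.17 over the untreated mice left out, each with a turned sign for 1 mouse. The cause was not tested.

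Counts over all genes moved further. In UN against U, with 2139 called, they were 1301 in voom (751 higher and 550 lower), 157 with 1 library per mouse and 849 and 1078 without untreated mice 1 and 2. In UT against UN, with 864 called, they were 1391 in DESeq2, 1390 with no filter, 1683 without UT 9, 571 without UT 4, 26 with the first library codes, 19 without UN 2, 13 with 1 library per mouse, 6 without UN 6, 3 with RIN at or above 5, 2 in voom and 0 with the fixed block, the 2 groups alone, RIN as a covariate or without UN 2 and UN 6 (3969 had an unadjusted p under 0.05 in the fit reported). In the bladder, with 2409 called, they were 5799 in DESeq2, 4401 with the first library codes and 1024 to 1075 without each untreated mouse. For the difference between organs, with 387 called, they were 926 in DESeq2, 718 with RIN as a covariate, 590 without UN 6, 896 with RIN at or above 5, 949 without UN 2 and UN 6, 73 with 1 library per mouse and 48 to 68 without each untreated mouse. RLE scaling moved the median of all genes from 0.25 to 0.35 in the bladder and from -0.10 to -0.24 in the difference between organs, and Cldn3, Cldn2 and Cldn8 were still called in the bladder.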
